A study of Rattus norvegicus with 20 samples.

Results

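The enzymes described here carry acetyl units to cholesterol in the liver. They are the products of *Hmgcs1*, *Idi1*, *Fdps*, *Fdft1*, *Sqle*, *Lss*, *Cyp51* and *Dhcr7*. The 8 genes were chosen by symbol, and every ProbeSet annotated to them was taken. This gave 12 ProbeSets of 15923, for 8 of the 10413 genes with a symbol. *Idi1*, *Fdft1*, *Lss* and *Cyp51* had 2 ProbeSets each, and the one with the higher mean stands for the gene where 1 is needed. All 12 had a mean log2 signal of at least 4, the level under which the study treats a transcript as unexpressed, as did 7168 ProbeSets of the array.

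Hepatic mRNA was measured in 20 male rats of 10 to 12 weeks on Affymetrix RAE230A arrays, with 4 rats in each of 5 groups and 1 array for each rat. Line-A and H/W (Han/Wistar, from a closed colony in Kuopio) carry a mutant *Ahr*, the gene of the aryl hydrocarbon receptor. Line-C, L-E (Long-Evans, Turku/AB, in-bred) and S-D (Sprague-Dawley, out-bred) carry the wild-type gene. Line-A and Line-C descend from crosses of L-E with H/W, so both hold a mixture of the 2 parental genomes beside their *Ahr* allele, and each is a single line. By the protocol every rat had received corn oil by gavage 19 hours before its liver was taken in the morning, although the S-D labels say only control. No group went without corn oil.

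Cholesterol is built from acetyl-CoA through mevalonate, isoprenoid units, squalene and lanosterol. HMG-CoA synthase 1 (*Hmgcs1*) makes the precursor of mevalonate. The isomerase *Idi1* and farnesyl diphosphate synthase (*Fdps*) make and join isoprenoid units, squalene synthase (*Fdft1*) couples them to squalene, and squalene epoxidase (*Sqle*) and lanosterol synthase (*Lss*) turn squalene into lanosterol, the first sterol. *Cyp51*, the lanosterol 14-alpha-demethylase, and *Dhcr7*, the 7-dehydrocholesterol reductase, act on the way from there to cholesterol. The genes are classical targets of the transcription factor SREBP-2, which is set free when membranes are poor in sterol and which binds promoters together with partners such as NF-Y. In liver the pathway also follows food intake and the time of day.

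The sequence before the transcription start is shown for 4 of the genes, which are those whose stretch held the CCAAT marked below. The stretches of *Cyp51* and *Dhcr7* held none and are not shown. Whether these letters have a part in the levels was not tested. The promoter table of RefSeq (build GRCr8) held 6 of the 8 genes. *Fdft1* and *Sqle* were not among them. Each stretch is the 250 bases before the start, in the direction of the gene, and capitals mark CCAAT, the core of the NF-Y site, on either strand (ATTGG where it lies on the other).

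Hmgcs1, chr2:53382054-53382303, plus strand: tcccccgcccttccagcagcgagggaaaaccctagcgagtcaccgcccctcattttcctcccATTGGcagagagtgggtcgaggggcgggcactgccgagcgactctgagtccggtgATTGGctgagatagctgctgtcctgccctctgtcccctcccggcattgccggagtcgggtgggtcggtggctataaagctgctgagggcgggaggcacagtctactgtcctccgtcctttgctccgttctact
Idi1, chr17:66547525-66547774, minus strand: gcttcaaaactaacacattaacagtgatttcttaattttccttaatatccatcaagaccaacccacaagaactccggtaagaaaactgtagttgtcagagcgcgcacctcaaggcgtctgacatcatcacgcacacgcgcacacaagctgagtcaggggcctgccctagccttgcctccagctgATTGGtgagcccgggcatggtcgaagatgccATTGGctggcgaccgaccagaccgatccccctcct
Fdps, chr2:176804817-176805066, minus strand: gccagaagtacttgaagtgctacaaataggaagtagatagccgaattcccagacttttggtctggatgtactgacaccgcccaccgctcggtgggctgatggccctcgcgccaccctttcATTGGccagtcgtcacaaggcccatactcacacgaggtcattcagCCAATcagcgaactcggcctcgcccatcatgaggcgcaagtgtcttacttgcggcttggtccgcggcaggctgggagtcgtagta
Lss, chr20:12118231-12118480, minus strand: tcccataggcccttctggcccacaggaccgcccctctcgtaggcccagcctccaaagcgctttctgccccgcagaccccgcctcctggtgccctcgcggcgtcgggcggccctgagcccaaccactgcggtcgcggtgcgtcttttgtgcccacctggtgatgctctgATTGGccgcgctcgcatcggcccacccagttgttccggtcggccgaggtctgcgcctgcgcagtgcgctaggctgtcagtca

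*Hmgcs1*, *Idi1* and *Fdps* each had 2 such pentamers in this window, at 188 and 133, 66 and 35, and 130 and 85 bases before the start. *Lss* had 1, at 82 bases, and neither *Cyp51* nor *Dhcr7* had any. Of the 33469 windows of this length in the table, 34% held at least 1 CCAAT and 9.42% at least 2. The core of the sterol regulatory element, TCACNCCAC, was in none of the 6 windows and in 0.974% of all. The GC box GGGCGG was in 5 of the 6, all but *Idi1*, and in 30.5% of all. All 3 motifs were looked for on both strands. No match overlapped that of another motif in the 6 windows. Such matches only describe the letters of the window.

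The values are log2 signals that the authors made with GC-RMA, and a difference of 1 is a 2-fold difference. Levels of different ProbeSets cannot be compared, since probes differ in how they bind. The median signal of the arrays lay between 3.47 and 3.69. The arrays had been scanned on 5 days. All Line-A and Line-C arrays shared 1 day and all S-D arrays another, with an operator of their own, while the H/W arrays fell on 3 days and the L-E arrays on 2. Scan day thus cannot be told apart from what sets S-D, or the lines, against the remaining groups. As a check of the tissue, the mean log2 signal of 5 hepatocyte genes lay between 13.59 and 14.34 in every rat.

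Line-A had the lowest levels of most of these enzymes. Of the 12 ProbeSets, 9 had their lowest group mean in Line-A, and in 10 of the 12 the lowest pair of groups was Line-A and S-D. The share of all ProbeSets with such an order was not counted. The parental strains and Line-C shared the upper places, with the highest mean in Line-C for 3 ProbeSets, in H/W for 5 and in L-E for 4. *Lss* was the exception to this order, being high in H/W and S-D alone. In whole liver RNA, fewer cells of a type and less RNA per cell cannot be told apart.

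**Figure D1:**
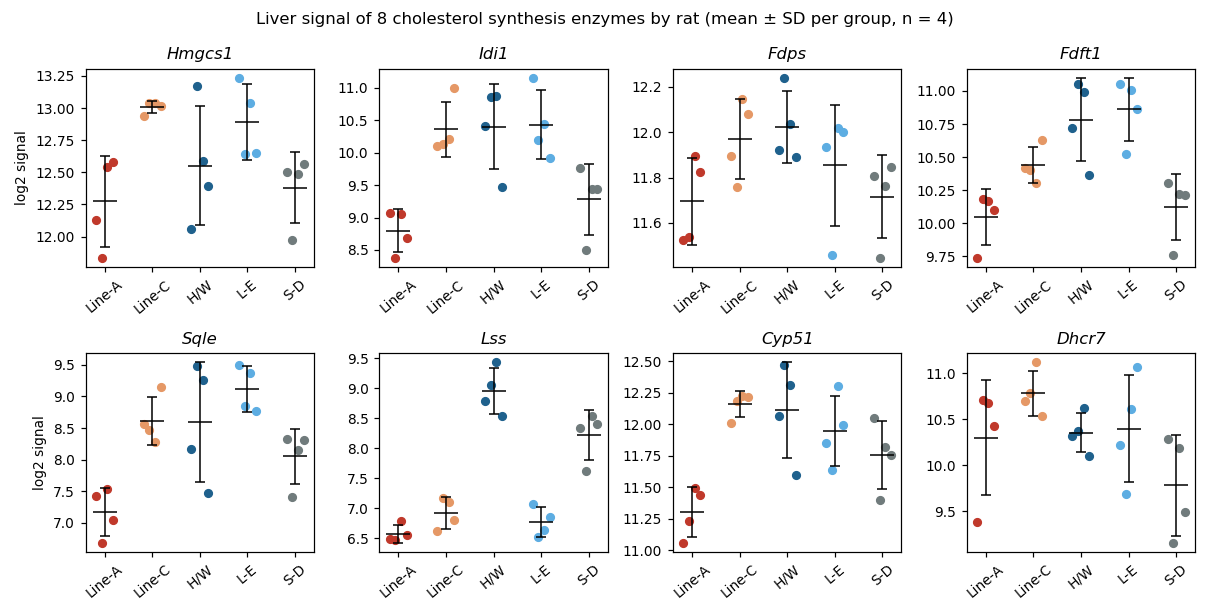
Log2 signal (vertical axes, 1 scale per panel) of the 8 enzymes in each of 20 rats by group, with black bars for the mean ± SD of 4 rats. *Lss* stands at 8.54 to 9.43 in H/W and at 6.46 to 6.78 in Line-A, and *Idi1* at 8.38 to 9.07 in Line-A against 10.10 to 10.99 in Line-C.

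At the entry of the pathway, *Hmgcs1* read 12.13, 11.84, 12.54 and 12.58 in Line-A rats and 12.94, 13.04, 13.04 and 13.02 in Line-C rats. It read 12.06, 13.17, 12.59 and 12.39 in H/W rats, 13.24, 12.64, 13.04 and 12.65 in L-E, and 12.50, 11.97, 12.48 and 12.57 in S-D. The Line-C rats were nearly alike and all above the Line-A rats, whereas the H/W rats spread over both. The moderated F-test over the 5 groups gave an adjusted p of 0.0471 from limma, above the 0.1% FDR used for that test. *Fdps*, which makes farnesyl diphosphate, was the flattest of the 8. Its group means were 11.70 ± 0.19 for Line-A, 11.97 ± 0.18 for Line-C, 12.02 ± 0.16 for H/W, 11.85 ± 0.27 for L-E and 11.72 ± 0.18 for S-D (SD, n = 4 each), and no pair of groups was called.

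*Idi1*, which balances the isoprenoid building blocks, was low in Line-A. Its main ProbeSet (1368878_at) read 9.07, 8.38, 9.05 and 8.69 in Line-A, and 10.10, 10.14, 10.20 and 10.99 in Line-C. It read 10.41, 10.85, 10.87 and 9.46 in H/W rats, 11.16, 10.19, 10.45 and 9.92 in L-E, and 9.76, 8.49, 9.44 and 9.44 in S-D. Every Line-A rat lay below every Line-C, H/W and L-E rat. *Sqle*, a rate-limiting enzyme beyond mevalonate, read 7.43, 6.69, 7.53 and 7.04 in Line-A against 8.56, 8.47, 8.28 and 9.16 in Line-C. In H/W it read 8.16, 9.48, 9.26 and 7.48, in L-E 9.49, 8.85, 9.38 and 8.77, and in S-D 8.33, 7.42, 8.15 and 8.31. The spread of the H/W rats was wider than that of any other member in any group, and their lowest value overlapped with Line-A.

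*Fdft1* and *Cyp51* kept a similar order with smaller steps. *Fdft1* (1367839_at) had means of 10.05 ± 0.21 for Line-A, 10.44 ± 0.14 for Line-C, 10.78 ± 0.31 for H/W, 10.86 ± 0.24 for L-E and 10.12 ± 0.25 for S-D. The second ProbeSet of *Cyp51* (1387020_at) read 9.52, 9.73, 9.79 and 9.79 in Line-A, and 10.38, 10.45, 10.51 and 10.82 in Line-C. It read 10.73, 11.06, 10.96 and 10.28 in H/W rats, 10.88, 10.24, 10.84 and 10.69 in L-E, and 10.31, 9.78, 10.14 and 10.04 in S-D. The Line-A rats were close together and below all rats of Line-C, H/W and L-E, and overlapped with S-D only. The main ProbeSet of *Cyp51* (1367979_s_at) was also lowest in Line-A, at 11.31, but highest in Line-C, at 12.16. Its means were 12.11 for H/W, 11.95 for L-E and 11.76 for S-D. *Dhcr7* scattered widely in some groups, with means of 10.30 ± 0.62 for Line-A, 10.78 ± 0.25 for Line-C, 10.35 ± 0.21 for H/W, 10.40 ± 0.59 for L-E and 9.78 ± 0.55 for S-D.

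The 2 lines, Line-A and Line-C, differ in their *Ahr* allele and in whatever else became fixed in each line. All 12 ProbeSets had a lower mean in Line-A than in Line-C, and 3 were called at 5% FDR by limma, where 1.39% of all ProbeSets were called and 0.641% called lower. *Idi1* (1368878_at) was 2.95-fold lower in Line-A (log2 difference -1.56 ± 0.35, SE, adjusted p = 0.0331 from limma). The 2 ProbeSets of *Cyp51* were 1.80-fold and 1.78-fold lower (log2 differences -0.85 ± 0.18 and -0.83 ± 0.17, SE), with adjusted p-values of 0.0242 and 0.0207 from limma. *Sqle* at -1.44 ± 0.37, the second *Idi1* ProbeSet at -1.41 ± 0.36 and *Hmgcs1* at -0.74 ± 0.22 (log2 differences, SE) did not pass, with adjusted p-values of 0.074, 0.0683 and 0.134 from limma. For 8 of the 12 ProbeSets no Line-A rat overlapped with a Line-C rat, against 5.14% of all ProbeSets. The median difference of the members was -0.63 on the log2 scale, and that of all ProbeSets 0.01.

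These calls rested on few rats. Without Line-C replicate 4, which had the highest *Idi1* and *Sqle* of its line, none of the 12 was called. Without Line-A replicate 1, Line-A replicate 2, Line-C replicate 2 or Line-C replicate 3, 1 was called, and 5 were called without H/W replicate 4, which enters through the shared spread alone. The log2 difference of *Idi1* (1368878_at) lay between -1.65 and -1.35 in these fits. Both lines were scanned on 1 day, so no scan day separates them. Markers of Kupffer cells and macrophages moved with this comparison: their mean over 7 genes lay between 7.42 and 7.5 in Line-A rats and between 8.17 and 8.49 in Line-C rats, and 3 of the 7 (*Cd14*, *C1qa* and *Lyz2*) were called lower in Line-A by limma. All 7 stellate and fibroblast genes also had a lower mean in Line-A, with none called. Their mean lay between 4.51 and 4.71 in Line-A rats and between 4.71 and 5.37 in Line-C rats. The hepatocyte markers lay between 14.10 and 14.17 in Line-A and between 14.06 and 14.22 in Line-C. The part of the macrophage and stellate markers in the difference of the enzymes was not tested.

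**Figure D2:**
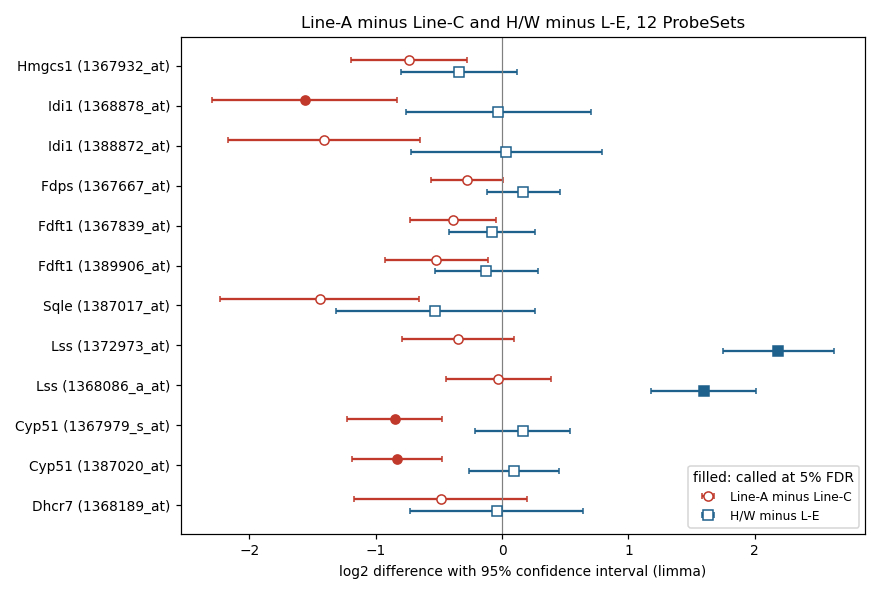
Log2 difference (horizontal axis, with its 95% confidence interval from limma) of the 12 ProbeSets, for Line-A minus Line-C (red circles) and H/W minus L-E (blue squares). All 12 red circles lie below 0, whereas of the blue squares the 2 of *Lss*, at 2.19 and 1.60, stand far to the right and the intervals of the others include 0.

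Several enzymes were also lower in Line-A than in the strains it descends from. Against H/W, 8 of 12 ProbeSets were called lower and none higher, where 6.39% of all were called and 3.09% called lower. *Idi1* stood at -1.60 ± 0.35 and -1.65 ± 0.36, *Sqle* at -1.42 ± 0.37, *Fdft1* (1367839_at) at -0.73 ± 0.16 and *Cyp51* at -0.80 ± 0.18 and -1.05 ± 0.17 (log2 differences, SE). The remaining 2 were those of *Lss*, at -2.38 ± 0.21 and -1.57 ± 0.20. The rats of Line-A and H/W did not overlap for 8 of the 12 ProbeSets, against 8.62% of all. Against L-E, again 8 of 12 were called lower, where 27.5% of all were called and 6.61% called lower. *Sqle* stood at 3.86-fold lower (log2 difference -1.95 ± 0.37, SE, adjusted p = 0.00268 from limma), and *Idi1* at -1.63 ± 0.35 and -1.62 ± 0.36. *Hmgcs1* passed in this comparison alone, at -0.62 ± 0.22 (adjusted p = 0.0454 from limma). *Lss* did not, at -0.20 ± 0.21 and 0.03 ± 0.20. The rats of Line-A and L-E did not overlap for 8 of the 12 either, but this held for 59.2% of all ProbeSets. Without Line-A replicate 1, L-E replicate 3 or L-E replicate 4 the count against L-E was 5. With scan day as a random block the counts fell to 3 of 12 against H/W and 4 of 12 against L-E. The share of all ProbeSets called under that block was not counted for these comparisons. The macrophage markers, at 7.42 to 7.5 in Line-A, were higher in every parental rat as well, at 7.88 to 8.22 in H/W and 8.13 to 8.70 in L-E, and their part in these differences was not tested.

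By the rule that a line lies outside both parents where it differs from each at 5% FDR in 1 direction, Line-A lay below both for 6 of the 12 ProbeSets, where 2.11% of all did. With scan day as a random block, an alternative added after seeing the data, it was 1 of 12, where 0.791% of all did. The 6 were both ProbeSets of *Idi1* and of *Cyp51*, 1 of *Fdft1* and that of *Sqle*. Line-C lay outside both parents for none of the 12, where 1.1% of all lay below both and 166 of 15923 above both. Against L-E, Line-C had 0 of 12 called by limma at 5% FDR, where 15.8% of all were called. Of the 12, *Fdft1* (1367839_at) came nearest, at -0.42 ± 0.16 (SE, adjusted p = 0.0719 from limma), and was the only 1 with an unadjusted p under 0.05, which 43.5% of all had. Without H/W replicate 3, 1 was called. Against H/W, Line-C had 2 called, both of *Lss* and both lower, where 3.89% of all were called and 1.75% called lower. The mean of both lines minus the mean of both parents was called lower for 7 of 12 (24.4% of all called, 6.54% called lower). With scan day as a random block this count was 1, and the share of all was not counted.

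*Lss* followed a pattern of its own. The main ProbeSet (1372973_at) read 6.48, 6.46, 6.78 and 6.55 in Line-A and 6.61, 7.17, 7.10 and 6.80 in Line-C. In the parents it read 8.79, 9.06, 9.43 and 8.54 in H/W and 7.07, 6.51, 6.63 and 6.85 in L-E, and in S-D it read 8.34, 7.61, 8.54 and 8.41. The H/W and S-D rats all lay above every rat of the other 3 groups. In order from high to low the groups were H/W, S-D, Line-C, L-E and Line-A, and of the neighbours in this order H/W and S-D differed (log2 difference 0.73 ± 0.21, SE, adjusted p = 0.0452 from limma), as did S-D and Line-C, while the neighbours among Line-C, L-E and Line-A were not called. The call between H/W and S-D was lost without S-D replicate 2, with scan day as a random block and at 1% FDR.

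Between H/W and L-E, 2 of the 12 ProbeSets were called, both of *Lss* and both higher in H/W, where 3.31% of all were called and 1.53% called higher. The main ProbeSet was 4.55-fold higher in H/W (log2 difference 2.19 ± 0.21, SE, adjusted p = 6.56e-06 from limma). The second, 1368086_a_at, read 7.61, 7.08, 7.94 and 7.16 in H/W rats, against 5.91, 5.70, 5.89 and 5.92 in L-E rats, a difference of 1.60 ± 0.20 (SE, adjusted p = 1.43e-04 from limma). The SD of that ProbeSet was 0.04 in Line-A, 0.03 in Line-C and 0.10 in L-E, against 0.40 in H/W and 0.49 in S-D. Some markers of other cells and of liver zones also differed in this comparison: *Csf1r* (1 of 7 macrophage genes), *Kdr* (1 of 3 endothelial genes), and *Glul* and *Cyp2e1* (2 of 5 pericentral genes) were called lower in H/W by limma. Of 7 stellate genes *Lrat* was called higher, and of 7 periportal genes *Hal* higher and *Cdh1* lower. Their part in the difference of *Lss* was not tested. Both *Lss* ProbeSets had no overlap between H/W and L-E rats, as had 7.56% of all. None of the other 10 ProbeSets was called, and the 95% intervals of their log2 differences ran from -1.31 to 0.79. On the scan day that 2 H/W and 3 L-E arrays shared, the main *Lss* ProbeSet differed by 2.58 ± 0.16 (SE, adjusted p = 0.0393 from limma) and the second by 1.68 ± 0.28 (SE, adjusted p = 0.213). Leaving out any 1 of the 20 rats kept the difference of the main ProbeSet between 2.03 and 2.33, with 2 ProbeSets called each time.

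Neither line kept the H/W level of *Lss*. On a scale from 0 at the lower parent, L-E, to 1 at H/W, Line-A stood at -0.09 and Line-C at 0.07 for the main ProbeSet, and at 0.02 and 0.04 for the second. The second hardly varied in Line-A, Line-C and L-E, with means of 5.88, 5.91 and 5.85. Whether it lay at its background there was not tested, so its positions are no separate result. Line-A, which shares the mutant *Ahr* with H/W, was thus 5.22-fold lower than H/W, and Line-C 4.10-fold lower. The difference between carriers of the mutant and the wild-type *Ahr* was compared between parents and lines as an interaction, which was called for 3 of the 12 ProbeSets (2.01% of all, 0.873% above 0). The 2 of *Lss* had values of 2.54 ± 0.29 and 1.63 ± 0.28 (log2, SE, adjusted p = 1.09e-04 and 0.00395 from limma). *Cyp51* (1367979_s_at) had 1.01 ± 0.25 (SE, adjusted p = 0.0486 from limma). This count was 2 in 16 of the 20 fits that left out 1 rat, and 6 without H/W replicate 4.

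The genetic model of the study gives each rat the sum of its S-D, L-E and H/W shares and an *Ahr* term for the mutant allele. In the main fit the coefficient of this term equals the Line-A minus Line-C difference. H/W and L-E rats change its error but not its value, so it is not a second result beside that comparison. None of the 12 ProbeSets had an *Ahr* coefficient called at 5% FDR by limma, where 0.659% of all did, and 7 of the 12 had an unadjusted p under 0.05, as had 6.71% of all. With scan day as a random block, or with array weights, 3 of the 12 were called, and the share of all ProbeSets under these settings was not counted. The coefficient of *Cyp51* (1367979_s_at) was -0.85 ± 0.20 (SE, adjusted p = 0.066 from limma) and that of *Idi1* (1368878_at) -1.56 ± 0.44 (SE, adjusted p = 0.170). That of *Lss* was -0.35 ± 0.43 (SE, adjusted p = 1.0). Without H/W replicate 2 or L-E replicate 3, 1 of the 12 was called.

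S-D rats had lower levels than the parental strains for several enzymes. H/W minus S-D was called higher for 5 of 12 (6.83% of all called, 2.38% called higher), and L-E minus S-D for 7, of which 5 were higher and the 2 of *Lss* lower (9.59% of all called, 4.04% called higher and 5.55% lower). *Idi1* (1388872_at) was 2.62-fold higher in H/W and 2.56-fold higher in L-E than in S-D, and *Fdft1* (1367839_at) 1.58-fold and 1.67-fold. The values of *Fdft1* were 0.66 ± 0.16 for H/W and 0.74 ± 0.16 for L-E (log2 differences, SE, adjusted p = 0.019 and 0.00661 from limma). Line-C minus S-D was called for 4 (12.2% of all, 6.91% higher and 5.26% lower), with *Idi1* (1388872_at) and *Fdft1* (1389906_at) higher and both of *Lss* lower. Line-A minus S-D was called for 2, both of *Lss* and both lower (37.5% of all, 8.17% lower). With scan day as a random block the counts fell to 0 for H/W, 1 for L-E, 1 for Line-C and 1 for Line-A, each minus S-D. The shares of all ProbeSets under that block were not counted here either. Markers of other cells moved with S-D too. The mean of 7 stellate genes lay between 5.17 and 6.27 in S-D rats, against 4.29 to 5.03 in H/W and 4.22 to 4.58 in L-E. That of 3 endothelial genes lay between 6.96 and 7.10 in S-D, against 6.38 to 6.67 in H/W and 6.64 to 6.72 in L-E. RNA integrity was read from the GAPDH control as its 3' minus 5' signal, which averaged 0.56 ± 0.02 in S-D, 0.49 ± 0.22 in H/W and 0.28 ± 0.04 in L-E (log2, SD, n = 4 each). By rat it ran from 0.54 to 0.58 in S-D, within the range of 0.33 to 0.81 in H/W and above that of 0.23 to 0.34 in L-E. For the beta-actin and hexokinase controls the S-D rats also lay within the range of the H/W rats. The part of the cell markers and of RNA integrity in the differences from S-D was not tested. One S-D rat, replicate 2, lay lowest of its group in all 8 enzymes, and without it the counts were 0 for H/W, 3 for L-E, and 2 for Line-C, each minus S-D. Without H/W replicate 1 or 2 the count for H/W minus S-D was 3 or 1. For L-E minus S-D it was 4 without L-E replicate 1, L-E replicate 3 or S-D replicate 3. For Line-C minus S-D it was 7 without Line-A replicate 4 or Line-C replicate 1, 8 without H/W replicate 3, 2 without Line-C replicate 2 or 3, and 1 without Line-C replicate 4 or S-D replicate 3. For Line-A minus S-D it was 4 without H/W replicate 3 or 4, and 1 without S-D replicate 1 or 3.

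Over the 5 groups, the F-test at 0.1% FDR called 3 of the 12 ProbeSets, where 4.6% of all were called. They were both of *Lss* (adjusted p = 1.39e-06 and 5.85e-05 from limma) and *Cyp51* (1387020_at, adjusted p = 9.46e-04). The main ProbeSet of *Cyp51* (1367979_s_at) was not called (adjusted p = 0.0109 from limma). The count was 6 without H/W replicate 4. As a measure of variation among rats of a group, the ratio of within-group to total variance (W/T) was taken from variance components (mean squares between and within groups), where 1 means that all variance lies within groups. It was lowest for *Lss*, at 0.0808 and 0.153, and highest for *Fdps* at 0.770 and *Dhcr7* at 0.759. The median of the 12 was 0.362, and the array's expressed ProbeSets (mean of 4 or more) had a median of 0.616. The median SD of the members was 0.30 within groups and 0.39 between them, against 0.18 and 0.14 for the expressed ProbeSets.

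The enzymes moved together among rats of the same group. Taking each rat's deviation from the mean of its group, 12 of the 20 rats had at least 7 of the 8 enzymes on 1 side of the mean, and 9 had all 8. H/W replicate 4, L-E replicate 2, S-D replicate 2 and Line-C replicate 1 were below the mean of their group in every enzyme. H/W replicates 2 and 3, Line-A replicate 3 and S-D replicates 1 and 3 were above it in every enzyme. In H/W the deviations of *Sqle* ran from -1.12 in replicate 4 to 0.88 in replicate 2, and those of *Idi1* from -0.93 in replicate 4 to 0.47 in replicate 3.

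**Figure D3:**
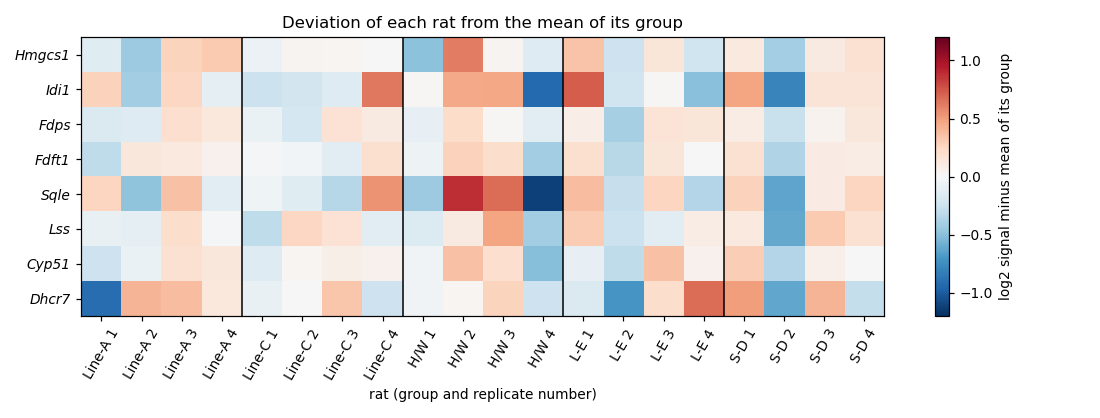
Deviation of the log2 signal of each rat (columns, by group and replicate number) from the mean of its group, for the 8 enzymes (rows in pathway order), red above and blue below the mean. Whole columns share a colour, such as H/W 4, L-E 2 and S-D 2 in blue and H/W 2 and H/W 3 in red.

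All 28 pairs of enzymes had a positive correlation of these deviations over the 20 rats, with Pearson's r between 0.08 and 0.90 and a median of 0.61. Spearman's rho lay between 0.02 and 0.91 with a median of 0.57. In a permutation test of rats within groups, 24 pairs had an adjusted p under 0.05 by r and 14 by rho, each adjusted over the 28 pairs. The closest pair was *Idi1* and *Sqle* (r = 0.90, permutation p = 2.00e-05, adjusted p = 0.00056; rho = 0.91, permutation p = 1.00e-05, the smallest that the resamples can give, adjusted p = 0.00028). *Fdft1* and *Cyp51* followed (r = 0.84, permutation p = 5.70e-04, adjusted p = 0.00532; rho = 0.72, permutation p = 0.00494, adjusted p = 0.0211). Without the pair of rats farthest from the median of the first enzyme, the *Idi1* and *Sqle* value was 0.84 and that of *Fdft1* and *Cyp51* 0.73, and over all 28 pairs the median fell to 0.52. The median lay between 0.53, without S-D replicate 2, and 0.66, without Line-C replicate 4, when 1 rat was left out.

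**Figure D4:**
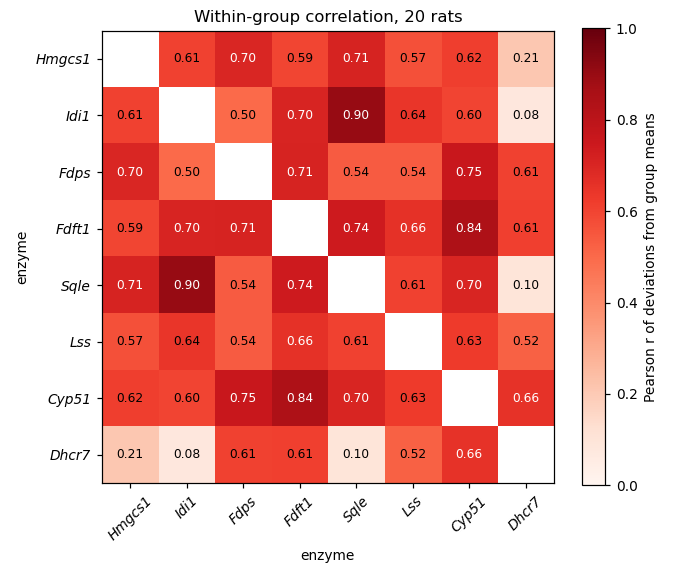
Pearson's r of the deviations from group means over 20 rats for each pair of the 8 enzymes, in pathway order on both axes, with darker red for higher r. *Idi1* and *Sqle* stand at 0.90, and *Dhcr7* with *Idi1*, *Sqle* and *Hmgcs1* at 0.08, 0.10 and 0.21.

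*Dhcr7* had the lowest median r of the 8 enzymes, at 0.52, though differences between correlations were not tested. Its r was 0.08 with *Idi1*, 0.10 with *Sqle* and 0.21 with *Hmgcs1* (permutation test, adjusted p = 0.758, 0.669 and 0.470), and the first of these turned to -0.20 without the 2 rats farthest from the median of *Idi1*. With *Cyp51* it was 0.66 (permutation p = 0.00251, adjusted p = 0.0134), with *Fdft1* and *Fdps* 0.61 each (adjusted p = 0.0248 and 0.0311) and with *Lss* 0.52 (adjusted p = 0.0307). The ranking by median did not hold for deviations within group and scan day, over 17 rats. There the median was 0.59 for *Dhcr7* and lowest for *Lss*, at 0.46, while *Dhcr7* had 0.04 with *Idi1* and -0.02 with *Sqle*. The main ProbeSet of *Lss* had 7 correlations between 0.52 and 0.66, all with an adjusted p under 0.05 by r in the permutation test and 2 of them by rho. Its second ProbeSet had an r of 0.04 with *Hmgcs1*, 0.21 with *Fdps* and 0.31 with *Sqle*. Over the 4 Line-C rats the main one had an r of -0.24 with *Idi1*, -0.45 with *Fdft1* and -0.49 with *Sqle*.

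The correlations were also taken group by group. The median r of the 28 pairs over the 4 rats of a group was 0.52 for Line-A, 0.19 for Line-C, 0.84 for H/W, 0.59 for L-E and 0.94 for S-D, and differences between these were not tested. Taking deviations within group and scan day, over 17 rats, left a median of 0.53 for all groups together. This left out H/W replicates 1 and 4 and L-E replicate 1, each alone of its group on its scan day. It therefore cannot speak for the H/W median. H/W replicates 2 and 3, which shared a scan day, had mean deviations of 0.37 and 0.29 over the enzymes, against -0.17 and -0.49 for replicates 1 and 4. The part of scan day in the H/W deviations was not tested. The mean deviation of the 8 enzymes had an r of -0.18 with the median signal of the array and of 0.25, -0.10 and -0.06 with the 3' minus 5' signal of the GAPDH, beta-actin and hexokinase controls, which is a measure of RNA integrity. The 2 ProbeSets of a gene agreed within groups, with an r of 0.93 for *Idi1*, 0.90 for *Fdft1*, 0.87 for *Cyp51* and 0.57 for *Lss*.

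The same was asked in the fit across all ProbeSets, with group means and the *Hmgcs1* signal as a covariate. Each of the other 11 ProbeSets had a positive slope, with a median of 0.46 log2 units per log2 unit of *Hmgcs1* and 0.01 for all ProbeSets. The steepest were *Sqle* at 1.22 ± 0.31 and *Idi1* at 1.17 ± 0.30 and 0.98 ± 0.33 (SE), and the flattest were *Dhcr7* at 0.31 ± 0.37 and *Lss* (1368086_a_at) at 0.03 ± 0.23. None of the 11 was called at 5% FDR by limma, and 0% of all 15922 were. At an unadjusted p under 0.05, 9 of the 11 passed and 3.42% of all. With *Sqle* as the covariate 4 of all ProbeSets were called (0.0251%), 2 of them those of *Idi1*, with slopes of 0.84 ± 0.10 and 0.89 ± 0.09 (SE, adjusted p = 0.0051 and 0.00121 from limma). With *Idi1* 3 were called (0.0188%), among them *Sqle* and the sister ProbeSet of *Idi1*. With *Fdft1* 2 were called (0.0126%), its own sister ProbeSet and *Cyp51* (1387020_at), at a slope of 0.99 ± 0.09. At an unadjusted p under 0.05, 9 of 11 members passed with *Sqle* (6.42% of all), 9 with *Idi1* (3.92%) and 10 with *Fdft1* (3.92%).

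**Figure D5:**
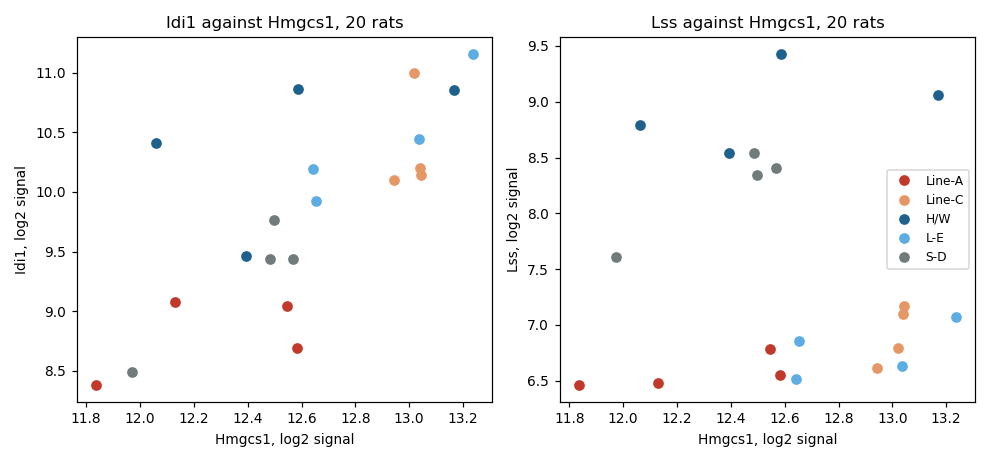
Log2 signal of *Idi1* (left) and *Lss* (right) against that of *Hmgcs1* in 20 rats, coloured by group. In the left panel the Line-A rats, at 8.38 to 9.07, lie below the Line-C rats, at 10.10 to 10.99. In the right panel H/W and S-D rats, at 7.61 to 9.43, form a layer above the other groups, at 6.46 to 7.17.

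At an equal level of *Hmgcs1*, *Lss* was again what separated H/W from L-E. Its main ProbeSet differed by 2.37 ± 0.19 (SE, adjusted p = 1.80e-06 from limma) and the second by 1.61 ± 0.22 (SE, adjusted p = 6.23e-04), and the others were not called (2.42% of all called, 1.06% called higher). The F-test over groups at equal *Hmgcs1* called 2 of the 11, both of *Lss*, where 3.61% of all were called, and 4 without H/W replicate 4. Line-A minus Line-C then had 0 of 11 called by limma, where 0.433% of all were, and the value of *Idi1* (1368878_at) went to -0.84 ± 0.37 (SE, unadjusted p = 0.0383, adjusted p = 0.630 from limma). At an unadjusted p under 0.05, 3 of the 11 passed, and 7.12% of all. No Line-A rat shared an *Hmgcs1* level with a Line-C rat, with 12.58 at most against 12.94 at least. This comparison thus rests on carrying the common slope, not called for any member, past the measured levels. It cannot show how far the lines differ apart from *Hmgcs1*. Line-A minus H/W still had 8 of 11 called lower (5.31% of all called, 2.51% called lower), with *Idi1* (1368878_at) at -1.33 ± 0.30 and *Cyp51* (1387020_at) at -0.92 ± 0.15 (SE). Line-A minus L-E had 2 of 11 called lower, *Sqle* at 2.29-fold lower and *Cyp51* (1387020_at) at 1.59-fold lower, where 7.62% of all were called and 3.3% called lower. Line-A and L-E rats did not share an *Hmgcs1* level either, with the lowest L-E rat at 12.64, so the same limit holds there.

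Other enzymes of the pathway were counted from a list of 12, of which the annotation matched 10. In Line-A minus Line-C, 9 of the 10 had a lower mean in Line-A, 2 were called lower and none higher by limma. These were *Acat2*, which makes acetoacetyl-CoA, at -1.23 (adjusted p = 0.0402 from limma), and the sterol isomerase *Ebp* at -0.72 (adjusted p = 0.0419). None of the 10 was called in H/W minus L-E or by the F-test, each taken by its main ProbeSet. A second ProbeSet of *Sc5d*, the lathosterol oxidase, was called higher in Line-A by 0.53 (adjusted p = 0.0255 from limma) while its main one read -0.31, so the 2 disagree. That second ProbeSet was also called by the F-test (adjusted p = 3.24e-05 from limma). Of 9 matched regulators and sterol-responsive genes of a list of 12, none was called in either comparison or by the F-test. *Insig1*, a target of SREBP that holds it back, averaged 11.01 in Line-A rats and 10.89 in Line-C rats, and *Srebf2*, the gene of SREBP-2, averaged 6.93 in Line-A and 7.12 in Line-C.

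The 10 transcripts whose deviations were most like the mean deviation of the 8 enzymes included 6 further enzymes of the same pathway. These were *Msmo1* (r = 0.90 over 20 rats), *Mvk* (0.81), *Ebp* (0.76), *Sc5d* (0.75), *Hsd17b7* (0.74) and *Mvd* (0.73), from 6094 ProbeSets with 1 symbol and a mean of at least 4. The median r of those 6094 was 0.03 and the 95th percentile 0.44. The other 4 were *Nomo1*, *Adrm1*, *Atp5f1b* and *Ptms*. The lowest r belonged to *Ttpa*, the tocopherol transfer protein, at -0.73. *Lss* over the 20 rats, group differences included, was most like *Gne* (r = 0.94), *Retsat* (0.91), *Mup5* (0.90), *Rcan2* (0.88) and *Slc39a1* (0.86). All 5 were called by limma in H/W minus L-E, each with the higher mean in H/W, where 3.31% of all were called. They were picked for following *Lss*, whose main ProbeSet varied mostly between groups (W/T of 0.0808). Such a pick favours genes that differ between the same groups, so these calls are no separate result. No pathway gene was among these 5.

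*Lss* lies on chromosome 20 in the current annotation (GRCr8). Among the 5 nearest genes on each side, 5 had a ProbeSet, namely *Col6a2*, *Ftcd*, *Mcm3ap*, *Ybey* and *Pcnt*, 7 ProbeSets in all. Of these 5 had a mean under 4, and only that of *Ftcd* and 1 of *Mcm3ap* had a higher one. Their differences between H/W and L-E lay between -0.07 and 0.04 on the log2 scale, with adjusted p-values of at least 0.340 from limma. Of these genes *Ftcd*, an enzyme of histidine breakdown, was at 12.73 in H/W and 12.70 in L-E. The 8 member genes lie on 7 chromosomes, with *Hmgcs1* and *Fdps* both on chromosome 2.

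Genes that follow feeding and the time of day were looked at because the pathway does so too. Of the list of 12, 9 were matched, 6 of them with a mean of at least 4. None of the 9 was called by limma in Line-A minus Line-C, in H/W minus L-E or by the F-test. Their mean was 5.69 to 6.08 for Line-A rats, 6.09 to 6.38 for Line-C, 5.81 to 6.23 for H/W, 6.10 to 6.71 for L-E and 5.96 to 6.40 for S-D. The genes were averaged without regard to the direction in which each responds, so this mean does not measure feeding state or time of day. *Igfbp1*, which rises in fasting, averaged 3.57 for Line-A, 5.64 for Line-C, 3.90 for H/W, 6.22 for L-E and 5.80 for S-D. Line-A minus Line-C was -2.07 (adjusted p = 0.258 from limma) and H/W minus L-E was -2.31 (adjusted p = 0.0959). *Igfbp1* was picked after its values were seen, and its Line-A and H/W means lie under the limit of 4 for an expressed transcript. Over the 9 genes the median difference was -0.04 for Line-A minus Line-C and -0.17 for H/W minus L-E, and 6 of the 9 had a lower mean in Line-A than in Line-C.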

How the data were processed

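Liver RNA of 20 rats was hybridised to 20 RAE230A arrays. The deposited values are log2 signals that the authors made from the array scans with GC-RMA, and the submitters' processing notes name R 2.6.1, affy 1.12.0 and GCRMA 2.10.0. GC-RMA fits all arrays together and pulls low signals towards a common background, so differences of dim ProbeSets are understated. No read depth applies, and the number of arrays limits the precision. ProbeSets were named from the platform annotation (12790 with 1 symbol, 312 with several and 2821 with none), except *Hmgcs1*, named from the study's supplementary annotation. The members and gene lists were chosen with earlier results of these data known. Named genes are the members, pathway genes that were called, the 10 and 5 nearest in correlation, and the neighbours of *Lss*; *Insig1*, *Srebf2*, *Igfbp1*, *Ttpa* and the cell markers were chosen after their values were seen.

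Groups follow the labels, with 1 rat as 1 replicate. Linear models were fitted with limma 3.58.1 in R 4.3.3 to all 15923 ProbeSets without a filter, with Benjamini-Hochberg adjustment over all of them and thresholds of 5% FDR for pairs, the interaction, slopes and the *Ahr* coefficient, and 0.1% FDR for the F-test. In the *Ahr* model the lines count 0.5 for each parent. Correlations used 100000 two-sided permutations of rats within groups. The fits of pairs and slopes were tested on simulated data. Alternatives covered limma trend, array weights, quantile normalization, equal array medians, a limit of 4 on the mean, scan day and replicate number as blocks, 1% FDR, and each rat left out.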

Additional observations from a re-analysis of the deposited data

Results flagged for a closer look

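In 7 of 60 sets of 4 rats (12 ProbeSets in 5 groups), 1 rat lay far from the other 3 by Dixon's criterion, which chance alone meets in about 1 of 20 sets. S-D replicate 2 was low for *Hmgcs1* at 11.97, for *Fdft1* (1367839_at) at 9.76 and for *Fdft1* (1389906_at) at 8.49. L-E replicate 2 was low for *Fdps* at 11.46 and for *Lss* (1368086_a_at) at 5.70. Line-C replicate 4 was high for *Idi1* (1368878_at) at 10.99, and Line-A replicate 1 was low for *Fdft1* (1389906_at) at 8.68.

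The difference between carriers of the mutant and the wild-type *Ahr* was not the same in the parents as in the lines. H/W minus L-E exceeded Line-A minus Line-C by 2.54 for *Lss* (1372973_at), by 1.63 for *Lss* (1368086_a_at) and by 1.01 for *Cyp51* (1367979_s_at), on the log2 scale, each past 5% FDR in limma's interaction test.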

How the results depend on the processing

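The difference of the main *Lss* ProbeSet between H/W and L-E kept its direction and its call in every alternative run, while the second lost its call on the shared scan day (adjusted p = 0.213 from limma). Over the alternatives no member changed direction in Line-A minus Line-C, H/W minus L-E or lines minus parents where it was called. Counts of called members moved more. Under most alternatives, and with 1 rat left out, the share of all ProbeSets was not counted. A move of the members thus cannot be told from a move of the whole array. With array weights they were 6 for Line-A minus Line-C, 1 for Line-C minus L-E, 5 for Line-A minus S-D, 9 for Line-C minus S-D, 6 by the F-test, 3 for the *Ahr* coefficient and 5 for the interaction. With ProbeSets of a mean of at least 4 they were 5 for Line-A minus Line-C, 7 for Line-C minus S-D and 1 for the *Ahr* coefficient. With scan day as a fixed block they were 5 for Line-A minus Line-C and 5 for the interaction. As a random block it gave 3 for Line-A minus H/W, 4 for Line-A minus L-E, 0 for H/W minus S-D, 1 for each of the L-E, the Line-A and the Line-C comparison with S-D, 3 for the *Ahr* coefficient, 1 for lines minus parents, 1 for Line-A below both parents (added after seeing the data) and 1 by the F-test at equal *Hmgcs1*. On the shared scan day 1 was called for H/W minus L-E. At 1% FDR there were 0 for Line-A minus Line-C, 5 each for Line-A minus H/W and minus L-E, 0 for H/W minus S-D, 2 for L-E minus S-D, 1 for Line-A minus S-D, 1 for Line-C minus S-D, 4 for lines minus parents, and 1 by the F-test at equal *Hmgcs1* at 0.01% FDR. Line-C minus S-D gave 8 with limma trend and 2 with equal array medians. With *Sqle*, *Idi1* or *Fdft1* in place of *Hmgcs1*, 2 slopes each were called. The cause of these moves was not tested.

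Leaving out 1 rat gave 0 to 5 for Line-A minus Line-C, 5 to 8 for Line-A minus L-E, 0 to 1 for Line-C minus L-E, 0 to 7 for H/W minus S-D, 3 to 8 for L-E minus S-D, 1 to 4 for Line-A minus S-D, 1 to 8 for Line-C minus S-D, 2 to 6 by the F-test, 0 to 1 for the *Ahr* coefficient, 2 to 6 for the interaction and 2 to 4 by the F-test at equal *Hmgcs1*. The replicate numbers did not pair the rats: same-numbered arrays of different groups had a median correlation of -0.0079 and 3 of 20 arrays were most like one of their own number. With the replicate block, the counts were 2 for the interaction, 2 by the F-test, 7 for Line-A minus L-E, and 4, 5 and 3 for H/W, L-E and Line-C minus S-D, and the others did not move. No member's call changed in Line-A minus Line-C, H/W minus L-E or lines minus parents. Scan day as a fixed block could not be fitted to the other comparisons.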
